A study of Mus musculus with 6 samples.

Results

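F-box proteins are the subunits of SCF ubiquitin ligases that choose the substrate. The genes described here are the 74 whose names begin with Fbxw, Fbxo or Fbxl followed by a digit, Fbxo5 and Fbxo43 left out, among 23259 gene names in the deposited table. For a name on several rows, the row with most reads was kept. There were 21 Fbxw genes, 35 Fbxo genes and 18 Fbxl genes. An F-box protein binds Skp1 through its F-box, Skp1 joins it to the cullin Cul1, and the ring protein Rbx1 brings in the ubiquitin-conjugating enzyme. Fbxw proteins carry WD repeats that recognise substrates, Fbxl proteins carry leucine-rich repeats, and Fbxo proteins carry other domains or none that is known. Eggs and early embryos inherit a large store of RNA from the oocyte, part of which is removed as the embryo's own genome is switched on, and degradation of maternal proteins by ubiquitin ligases takes place over the same stages.

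The series holds 3 groups with 2 samples each, 6 samples in all: Pabpn1l-null zygotes, wild-type (WT) 2-cell embryos and WT zygotes, all from mice. Pabpn1l is a cytoplasmic poly(A)-binding protein gene of oocytes and early embryos. In S4U-seq, cells take up 4-thiouridine, RNA made during the labelling carries it, and after alkylation these bases are read as C in place of T. One protocol text is given for all samples: 50 zygotes a sample, collected from mated females 26 h after hCG injection and held for 2 h in medium with 200 μM S4U. The labels do not say when the 2-cell embryos were collected, which part of Pabpn1l was removed or which strain the mice were. The table has 1 pair of columns per group, 1 for all reads and 1 for those in which a T was read as C. Whether a pair merges both samples is not stated. The tests therefore compare libraries and have no replicate check. Differences between these columns may come from genotype or stage or from the libraries themselves. Fewer embryos than the protocol states, less RNA per embryo or RNA that was lost cannot be told apart.

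Over 1 row per name the columns held 1270347 reads for Pabpn1l-null zygotes, 4020444 for WT 2-cell embryos and 3001472 for WT zygotes. The share with a T-to-C mismatch was 3.86% in Pabpn1l-null zygotes, 4.54% in WT 2-cell embryos and 3.03% in WT zygotes. The null column held more zeros than independent reads would give. From the WT zygote column alone, 3 to 5 reads were predicted there for 969 genes. Of these, 54.9% had 0, against 2.08% if reads were independent and levels equal in both columns. For this reason 7 reads were counted as 1 molecule in all tests and intervals. This includes those with the 2-cell column, for which no such check was made. Whether clumped reads or a difference in level gave the zeros was not tested. In which column reads were clumped was not tested either. Pabpn1l itself had 4 reads in Pabpn1l-null zygotes, 14 in WT 2-cell embryos and 47 in WT zygotes. The ratio of the null column to the WT zygote column was 0.192 with a 95% interval of 0.00716 to 2.51, so the check of the genotype label was too shallow to pass a test. All 10 oocyte and early embryo markers listed were detected in the table. The 12 cumulus and granulosa cell markers summed to 83 reads in Pabpn1l-null zygotes, 356 in WT 2-cell embryos and 287 in WT zygotes, with 5 of them at 0 throughout. Of these reads, Nr5a2 alone held 41 in Pabpn1l-null zygotes, 241 in WT 2-cell embryos and 134 in WT zygotes. In Pabpn1l-null zygotes, WT 2-cell embryos and WT zygotes the 6 sperm markers summed to 0, 4 and 8 reads, and the 3 blood cell markers analysed to 1, 37 and 42.

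Of the Fbxw genes, 12 lie side by side in one array on chromosome 9. In RefSeq on GRCm38.p6 the array spans chr9:109139454-109746089, or 607 kb, and holds 14 protein-coding genes, all 14 with F-box names, of which Fbxw23 and Fbxw25 were not analysed here. The array was set apart after its values were seen. RefSeq promoters, each 300 bases from 250 before to 50 after the gene's start, were matched for 57 of the 74 members, 10 of them in the array. Promoters of the array resembled one another, with a pairwise identity of 64.7% to 97.0% and a median of 85.3% over 45 pairs. Against the promoters of the other members the identity was 39.6% to 50.8%, with a median of 45.0% over 470 pairs. The following promoters show this likeness in 3 genes of the array that differed in their reads, beside Fbxo33, a member outside it whose reads were higher in 2-cell embryos. They are given 5′ to 3′ on the strand of the gene, and capitals mark the E-box letters CANNTG, which read the same on both strands.
Fbxw14 (chr9:109287627-109287926, minus strand): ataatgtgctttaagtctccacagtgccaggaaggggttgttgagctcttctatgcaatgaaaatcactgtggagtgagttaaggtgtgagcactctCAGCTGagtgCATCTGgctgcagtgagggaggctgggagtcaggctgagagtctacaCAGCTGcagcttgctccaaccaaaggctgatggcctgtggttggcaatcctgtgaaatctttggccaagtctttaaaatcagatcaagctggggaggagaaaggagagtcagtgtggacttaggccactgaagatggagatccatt
Fbxw26 (chr9:109746040-109746339, minus strand): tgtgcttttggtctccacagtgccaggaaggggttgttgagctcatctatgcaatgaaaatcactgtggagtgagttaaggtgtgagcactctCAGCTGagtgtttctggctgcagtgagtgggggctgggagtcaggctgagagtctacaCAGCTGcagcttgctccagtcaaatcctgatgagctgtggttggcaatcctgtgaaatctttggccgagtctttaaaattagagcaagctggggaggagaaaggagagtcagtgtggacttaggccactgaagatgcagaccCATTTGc
Fbxw28 (chr9:109339610-109339909, minus strand): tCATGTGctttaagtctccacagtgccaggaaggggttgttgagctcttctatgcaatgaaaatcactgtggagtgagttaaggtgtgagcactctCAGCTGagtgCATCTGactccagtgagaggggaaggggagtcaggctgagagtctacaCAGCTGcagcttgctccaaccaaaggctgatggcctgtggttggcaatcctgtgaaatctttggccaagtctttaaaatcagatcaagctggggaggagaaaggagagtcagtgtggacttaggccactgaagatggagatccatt
Fbxo33 (chr12:59219434-59219733, minus strand): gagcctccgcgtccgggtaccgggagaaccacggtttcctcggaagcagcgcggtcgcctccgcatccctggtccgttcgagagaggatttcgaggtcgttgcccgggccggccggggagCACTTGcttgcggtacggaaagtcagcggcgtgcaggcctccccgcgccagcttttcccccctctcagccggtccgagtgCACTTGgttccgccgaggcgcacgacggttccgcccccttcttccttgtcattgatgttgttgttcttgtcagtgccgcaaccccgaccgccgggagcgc
The promoters of Fbxw14 and Fbxw28 were the most alike, at 97.0%, and Fbxw26 stood at 91.8% and 90.8% to them. CANNTG was present in 10 of 10 promoters of the array, in 43 of the 57 member promoters (75.4%), and in 72.3% of all 32817 RefSeq promoters of this length, so its presence sets no member apart. The letters TATAAA, searched on both strands, were in 0 of the 57 member promoters, against 13.6% of all promoters. CpG dinucleotides numbered 0 to 4 with a median of 1 in promoters of the array, 3 to 56 with a median of 21 in the other 47 member promoters, and had a median of 7 over all promoters. Fbxw14 and Fbxw28 had 0 CpG, Fbxw26 had 1, and Fbxo33 had 36.

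Most members were detected. Over the 3 columns, 60 members had at least 20 reads and were tested, 8 had 1 to 19 reads, and 6 had 0: Fbxo2, Fbxo4, Fbxo24, Fbxo39, Fbxo41 and Fbxo44. At least 1 read was seen for 56 members in Pabpn1l-null zygotes, 63 in WT 2-cell embryos and 66 in WT zygotes. Every one of the 21 Fbxw genes had a read in WT zygotes, as did 28 of 35 Fbxo and 17 of 18 Fbxl genes. The reads were held by few members. Fbxo34 took 29.4% of all member reads in Pabpn1l-null zygotes (exact 95% interval on molecules, 26.8% to 32.0%), 16.1% in WT 2-cell embryos (14.7% to 17.5%) and 35.5% in WT zygotes (33.8% to 37.3%). Fbxo28 was next in both zygote columns, with 9.20% in Pabpn1l-null zygotes and 11.4% in WT zygotes, whereas Fbxl19 with 9.70% was next in WT 2-cell embryos. Reads were not divided by transcript length, so these shares say which members the reads come from and not which RNAs were the more abundant. Intervals and floors cover counting error only.

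**Figure D1:**
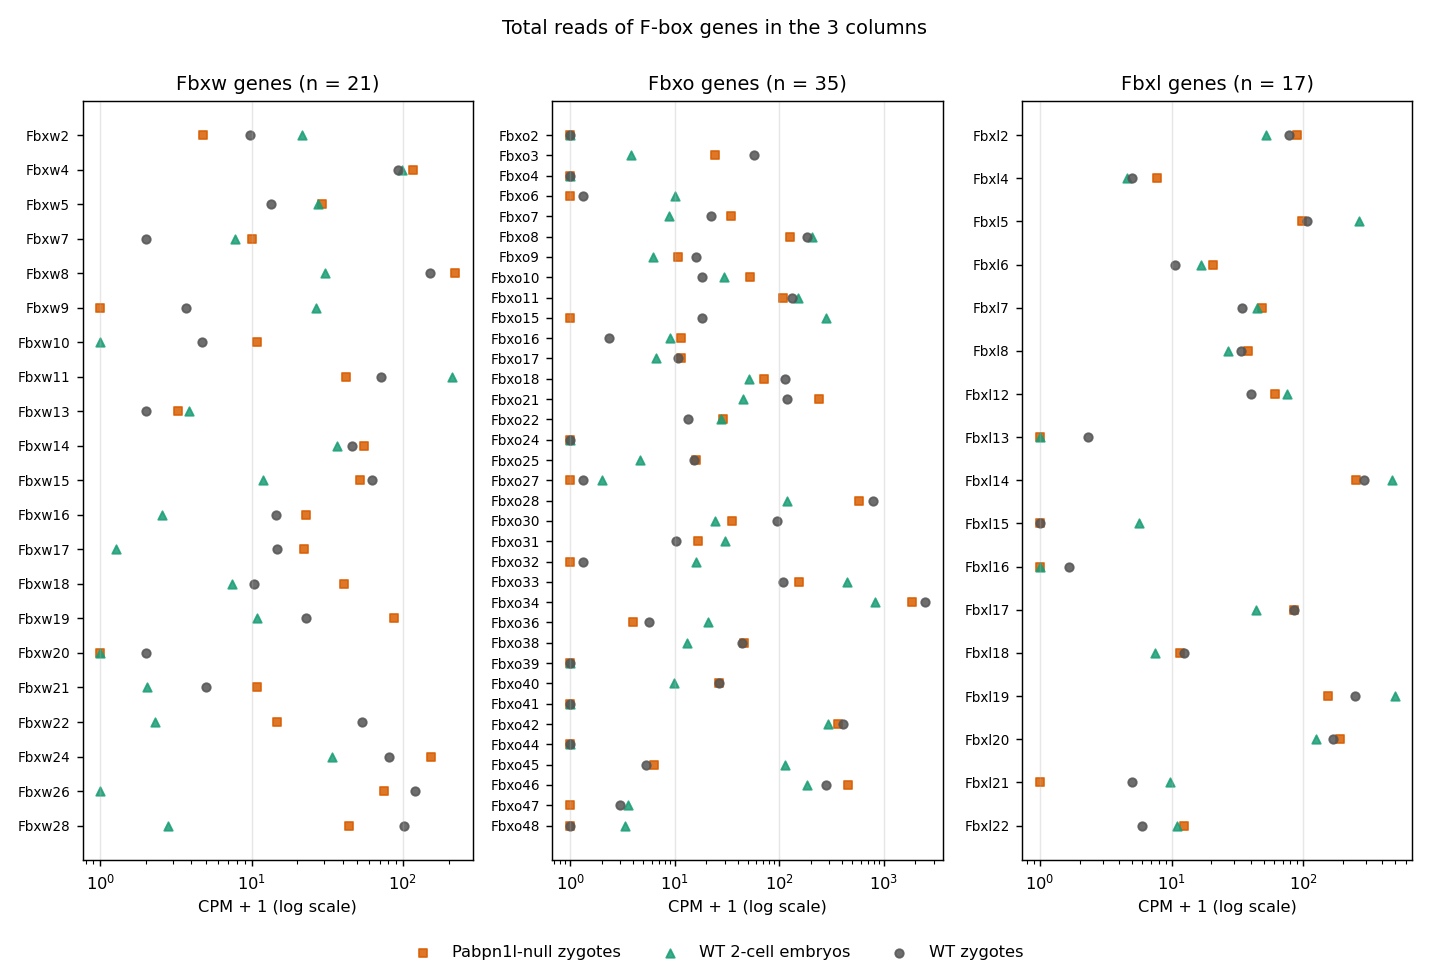
Total reads in CPM, after scaling, plus 1 (log axis) of 73 F-box genes, in 3 panels for 21 Fbxw, 35 Fbxo and 17 Fbxl genes. Squares are Pabpn1l-null zygotes, triangles WT 2-cell embryos and circles WT zygotes, 1 column each; the green triangles of many Fbxw genes lie left of both zygote symbols, and Fbxo34 lies furthest right among the Fbxo genes.

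Between WT 2-cell embryos and WT zygotes, 7 of the 60 members tested were higher and 14 were lower in total reads. A call needed an adjusted p under 0.05 and at least a 2-fold difference (exact conditional binomial test, Benjamini-Hochberg adjusted over 11262 genes). The 35.0% of members called stood beside 34.2% of all genes tested, 17.3% higher and 17% lower, so the share of members called was near the background. Members were called lower in 23.3% of cases and higher in 11.7%. The median log2 ratio was -0.39 over the 60 members and 0.04 over all genes tested. With genes at 0 in 1 column set at their bound, it was -0.33 over the members and 0 over all genes tested. Scaling by another method (RLE size factors) gave 10 higher and 12 lower, with 45.5% of the calls higher against 33.3%, and moved the median of all genes to 0.28. With every read counted as 1 molecule, 39 of the 60 were called, beside 59.4% of all genes. The edgeR exact test at an assumed variation of 0.4 called 15 of the 60, 5 higher and 10 lower, beside 26.3% of all genes, and 12 of its calls were among the 21. Summed over the 74 members, WT 2-cell embryos had 19769 reads and WT zygotes 20838, a scaled ratio of 0.732 (0.695 to 0.771). Without Fbxo34 the ratio was 0.953 (0.897 to 1.01).

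The 3 name groups had different counts, and the difference between groups was not tested. Among 19 Fbxw genes tested, 2 were higher and 7 lower in WT 2-cell embryos, with a median log2 ratio of -1.25 (-1.07 with genes at 0 at their bound). The Fbxo genes gave 4 higher and 7 lower of 26, with a median of -0.54. The Fbxl genes gave 1 higher and 0 lower of 15, with a median of 0.37. At an unadjusted p under 0.05, 5 Fbxl genes passed the exact test, with no share of all genes counted at that threshold. The edgeR exact test at an assumed variation called 0 Fbxl genes. Summed reads of the Fbxl genes were 6476 in WT 2-cell embryos and 3438 in WT zygotes, a ratio of 1.45 (1.30 to 1.63). The Fbxw sum was 2015 reads in WT 2-cell embryos against 2578 in WT zygotes, a ratio of 0.603 (0.516 to 0.707), and 0.392 (0.325 to 0.473) without Fbxw11. The Fbxo sum was 11278 reads in WT 2-cell embryos against 14822 in WT zygotes, a ratio of 0.587 (0.550 to 0.627), and 0.842 (0.775 to 0.917) without Fbxo34.

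**Figure D2:**
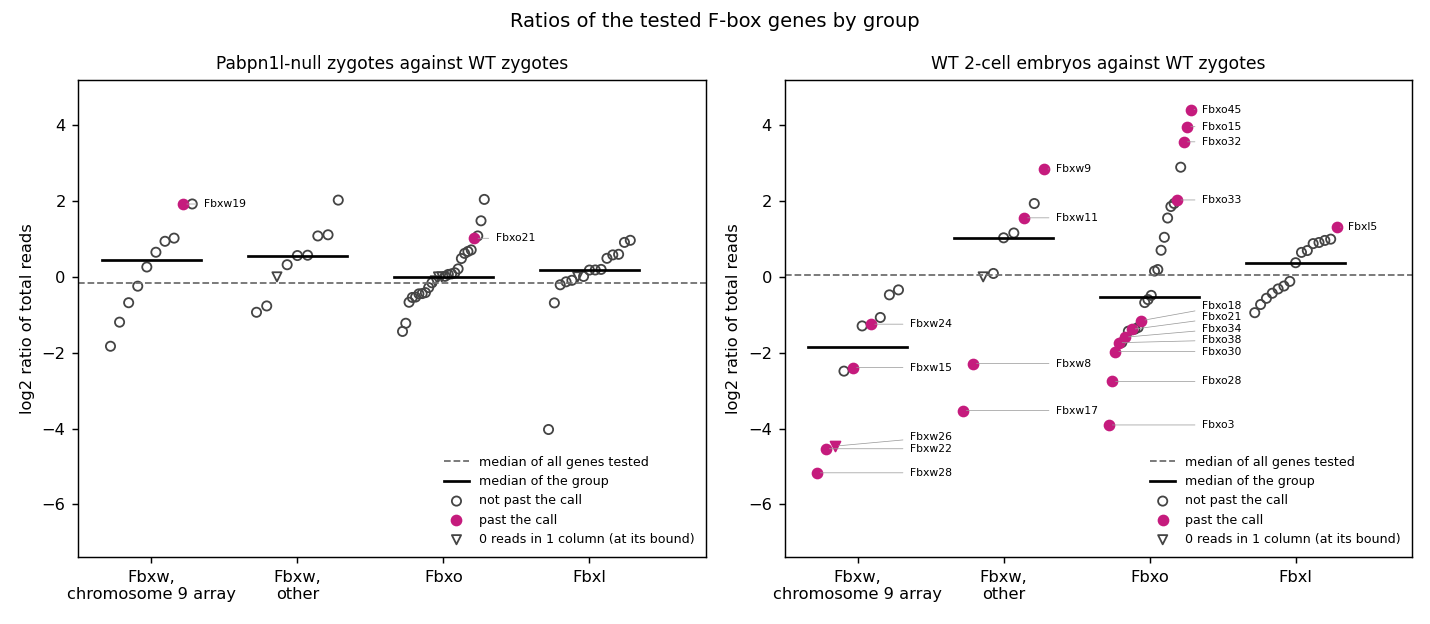
Log2 ratio of total reads of the 60 tested F-box genes, Pabpn1l-null zygotes over WT zygotes (left) and WT 2-cell embryos over WT zygotes (right), by group; each point is 1 gene, filled where past the call, and a triangle marks a gene with 0 reads in 1 column, drawn at its bound, or at 0 where the other column has no more reads than the floor. Short lines are medians of the drawn values. The dashed line is the median of all genes tested, with no bound used for genes at 0. In the right panel all 10 points of the chromosome 9 array lie below 0, with a median of -1.84.

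Of the 7 lower Fbxw genes, 5 were in the array on chromosome 9. These rodent genes, of which several are known to be active in mouse oocytes, include Fbxw15, whose protein has been described as directing degradation of the histone acetyltransferase HBO1. The 12 genes summed to 729 reads in Pabpn1l-null zygotes, 402 in WT 2-cell embryos and 1522 in WT zygotes. The ratio of WT 2-cell embryos to WT zygotes was 0.204 (0.149 to 0.273), and 0.267 without Fbxw26. Of 10 array genes tested, 0 were higher and 5 lower in WT 2-cell embryos, against a background of 17.3% and 17%, and all 10 ratios were below 1, also under both other scalings. At an unadjusted p under 0.05, 6 of the 10 passed, with no share of all genes counted at that threshold. The 9 tested Fbxw genes outside the array had 2 higher and 2 lower, with a median log2 ratio of 1.03. Near-identical copies can share reads, and no label or header says how the authors' counting treated such reads, so values of single array genes are uncertain.

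Within the array the 2-cell ratios covered a wide range. Fbxw26, at the end of the array, had 98 reads in Pabpn1l-null zygotes, 0 in WT 2-cell embryos and 358 in WT zygotes. Taking 21 reads (3 molecules) as the floor for its 0, it was at least 22.1-fold lower in WT 2-cell embryos, and the interval of the ratio ended at 0.0579 (exact test, adjusted p = 7.54e-18). Fbxw28 had 57 reads in null zygotes, 7 in 2-cell embryos and 301 in WT zygotes, with a ratio of WT 2-cell embryos to WT zygotes of 0.0180 (0.000444 to 0.106); another Fbxw28 row, not used, gave 0.324. In the rows used, both genes were thus at or near 0 in the 2-cell column while still read in the null zygotes. Fbxw22 had 18 reads in Pabpn1l-null zygotes, 5 in WT 2-cell embryos and 157 in WT zygotes, with a 2-cell ratio of 0.0246 (0.00085 to 0.217). Fbxw15 had 68 reads in null zygotes, 42 in 2-cell embryos and 183 in WT zygotes, a 2-cell ratio of 0.177 (0.0600 to 0.443). Fbxw24, the array gene with most reads over the columns, had 203 reads in Pabpn1l-null zygotes, 127 in WT 2-cell embryos and 237 in WT zygotes, a 2-cell ratio of 0.414 (0.217 to 0.744). These 3 genes were also past the call, with smaller differences in Fbxw15 and Fbxw24, and the edgeR exact test did not call Fbxw24. Fbxw14, whose promoter nearly matches that of Fbxw28, had 72 reads in null zygotes, 137 in 2-cell embryos and 135 in WT zygotes and was not past the call, with a 2-cell ratio of 0.783 (0.412 to 1.61). The difference between Fbxw14 and Fbxw28 was not tested.

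**Figure D3:**
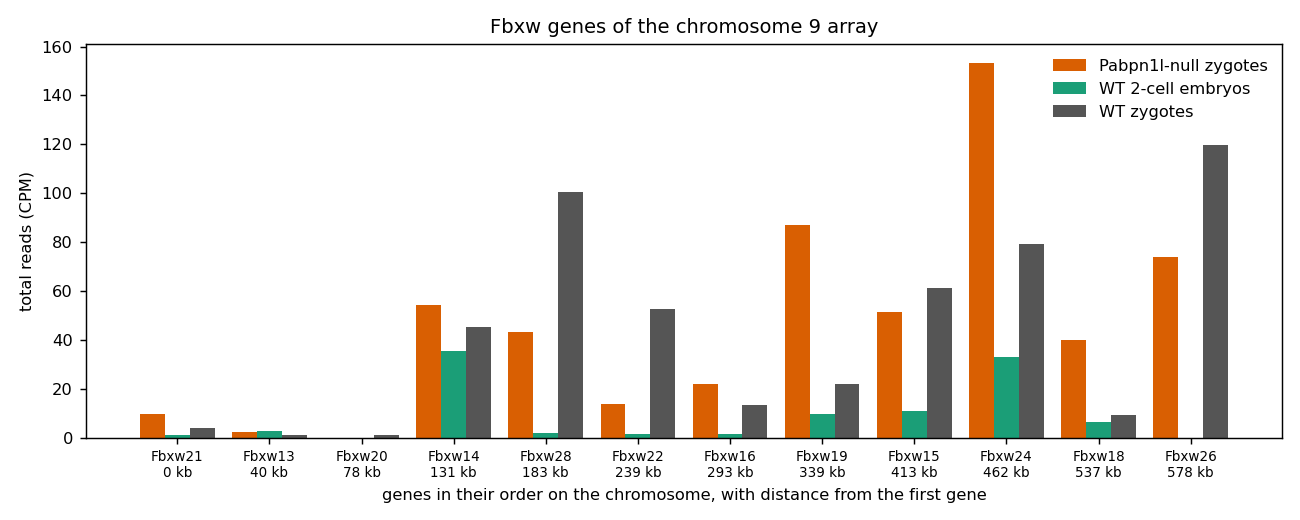
Total reads in CPM, after scaling, of the 12 Fbxw genes of the chromosome 9 array that were analysed, in their order on the chromosome with the distance from the first gene in kb. Bars from left to right are Pabpn1l-null zygotes, WT 2-cell embryos and WT zygotes, 1 column each; Fbxw26 has no 2-cell bar because it had 0 reads there.

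Outside the array, 2 Fbxw genes were lower in WT 2-cell embryos. Fbxw8, a partner of the cullin Cul7, had 292 reads in Pabpn1l-null zygotes, 115 in WT 2-cell embryos and 445 in WT zygotes, a 2-cell ratio of 0.200 (0.104 to 0.338; exact test, adjusted p = 3.75e-10). Fbxw17, on chromosome 13, had 28 reads in null zygotes, 1 in 2-cell embryos and 41 in WT zygotes, a ratio of 0.0188 whose interval reached 0.656. The 2 higher genes were Fbxw11 and Fbxw9. Fbxw11, one of the beta-TrCP proteins that send beta-catenin and other phosphorylated substrates to degradation, had 54 reads in Pabpn1l-null zygotes, 812 in WT 2-cell embryos and 211 in WT zygotes, a 2-cell ratio of 2.97 (1.98 to 4.62), which the edgeR exact test did not call. Fbxw9 had 0 reads in null zygotes, 99 in 2-cell embryos and 8 in WT zygotes, a ratio of 9.55 (1.64 to 457) that rests on few molecules in WT zygotes. Fbxw7, which targets cyclin E and Myc, had 12 reads in Pabpn1l-null zygotes, 26 in WT 2-cell embryos and 3 in WT zygotes and passed no call. Fbxw4 had 152 reads in null zygotes, 378 in 2-cell embryos and 274 in WT zygotes, with a 2-cell ratio of 1.07 (0.695 to 1.66).

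The Fbxo genes that were lower in WT 2-cell embryos included the pair with most reads in WT zygotes. Fbxo34, linked to meiosis of mouse oocytes, had 2456 reads in Pabpn1l-null zygotes, 3179 in WT 2-cell embryos and 7400 in WT zygotes, a 2-cell ratio of 0.332 (0.296 to 0.370; exact test, adjusted p = 8.05e-93). Fbxo28, whose protein acts on Myc, had 770 reads in null zygotes, 451 in 2-cell embryos and 2375 in WT zygotes, a 2-cell ratio of 0.147 (0.110 to 0.191; exact test, adjusted p = 1.99e-61). Both had their highest scaled level in WT zygotes and their lowest in WT 2-cell embryos. Fbxo30, also linked to mouse oocyte meiosis, had 45 reads in Pabpn1l-null zygotes, 91 in WT 2-cell embryos and 284 in WT zygotes, a 2-cell ratio of 0.247 (0.120 to 0.466). Fbxo3 had 31 reads in null zygotes, 11 in 2-cell embryos and 170 in WT zygotes, a ratio of 0.050 (0.00737 to 0.259), where another Fbxo3 row, not used, gave 0.253. Fbxo38, described as acting on the receptor PD-1 in T cells, had 60 reads in Pabpn1l-null zygotes, 47 in WT 2-cell embryos and 128 in WT zygotes, a 2-cell ratio of 0.283 (0.106 to 0.753). Fbxo21 had 316 reads in null zygotes, 171 in 2-cell embryos and 350 in WT zygotes, a ratio of 0.377 (0.218 to 0.614). Fbxo18, an F-box DNA helicase, was also past the call, with 93 reads in Pabpn1l-null zygotes, 194 in WT 2-cell embryos and 337 in WT zygotes and a 2-cell ratio of 0.444 (0.272 to 0.732). Of these 7 genes, the edgeR exact test called Fbxo28 and Fbxo3 and not Fbxo34, Fbxo30, Fbxo38, Fbxo21 or Fbxo18, and under RLE scaling Fbxo38 and Fbxo18 also lost the call.

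The 4 Fbxo genes that were higher in WT 2-cell embryos had few or no reads in the null column, apart from Fbxo33. Fbxo33, described as acting on the RNA-binding protein YB-1, had 202 reads in Pabpn1l-null zygotes, 1730 in WT 2-cell embryos and 325 in WT zygotes, a 2-cell ratio of 4.11 (3.02 to 5.81), which the edgeR exact test did not call. Fbxo15, a gene of pluripotent mouse stem cells and a known target of the factor Oct4, had 0 reads in null zygotes, 1087 in 2-cell embryos and 51 in WT zygotes, a ratio of 16.5 (8.10 to 43.2; exact test, adjusted p = 2.11e-28). Fbxo45, which works with a large ubiquitin ligase in neurons, had 7 reads in null zygotes, 439 in 2-cell embryos and 13 in WT zygotes, a ratio of 26.1 (6.46 to 205). For Fbxo15 and Fbxo45 nearly all reads were thus in the 2-cell column. Fbxo32, known as atrogin-1 in muscle wasting, had 0 reads in Pabpn1l-null zygotes, 58 in WT 2-cell embryos and 1 in WT zygotes, a ratio of 44.8 with a lower limit of 1.32 and no upper limit. Fbxo42, described as acting on p53, had 481 reads in null zygotes, 1117 in 2-cell embryos and 1211 in WT zygotes and a 2-cell ratio of 0.712 (0.572 to 0.890), short of the fold asked. Fbxo11, which targets Bcl6, had 143 reads in Pabpn1l-null zygotes, 584 in WT 2-cell embryos and 394 in WT zygotes, a ratio of 1.14 (0.806 to 1.64). Fbxo7, a gene of inherited parkinsonism in people, had 44 reads in null zygotes, 30 in 2-cell embryos and 63 in WT zygotes and a 2-cell ratio of 0.368 (0.0772 to 1.23). Neither Fbxo11 nor Fbxo7 passed the call.

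Of the Fbxl genes, Fbxl5 alone was past the call. Fbxl5, the iron sensor that targets the iron regulatory protein Ireb2, had 128 reads in Pabpn1l-null zygotes, 1026 in WT 2-cell embryos and 317 in WT zygotes, a 2-cell ratio of 2.50 (1.79 to 3.60; exact test, adjusted p = 6.96e-08), which the edgeR exact test did not call. Fbxl19, which binds CpG-rich DNA, had 203 reads in null zygotes, 1917 in 2-cell embryos and 741 in WT zygotes and a ratio of 2.00 (1.59 to 2.52) that ended just under the fold asked, and it was past the call under RLE scaling. Fbxl14, known for acting on Snail, had 331 reads in Pabpn1l-null zygotes, 1816 in WT 2-cell embryos and 865 in WT zygotes, a ratio of 1.62 (1.30 to 2.01; exact test, adjusted p = 4.67e-05) below the fold asked. These 3 genes held most Fbxl reads in WT 2-cell embryos. Fbxl20 had 251 reads in null zygotes, 479 in 2-cell embryos and 500 in WT zygotes, with a 2-cell ratio of 0.740 (0.522 to 1.05). Fbxl15, described as acting on Smurf1, had 18 reads in WT 2-cell embryos and 0 in both zygote columns, which is under the floor of 21 reads.

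In Pabpn1l-null zygotes against WT zygotes, 2 of 60 members were higher and 0 were lower. The 3.33% of members called stood beside 1.44% of all genes tested, 0.728% higher and 0.71% lower. At an unadjusted p under 0.05, 13 members passed, but the share of all genes at that threshold was not counted, so this number has no background. The median log2 ratio was 0.09 over the members and -0.15 over all genes tested, and by group it was 0.56 for Fbxw, -0.07 for Fbxo and 0.18 for Fbxl genes. With genes at 0 in 1 column set at their bound, it was 0.09 over the members, 0 over all genes tested and 0.007 for Fbxo genes. Fbxw19, a gene of the array, had 115 reads in Pabpn1l-null zygotes against 65 in WT zygotes, a scaled ratio of 4.00 (1.67 to 10.3; exact test, adjusted p = 0.0283). Fbxo21 had 316 reads in Pabpn1l-null zygotes against 350 in WT zygotes, a ratio of 2.04 (1.33 to 3.10; exact test, adjusted p = 0.0298). The edgeR exact test at an assumed variation called neither of these, so the 2 methods shared 0 calls, and it called Fbxo15 lower, beside 1.22% of all genes called by it. With every read counted as 1 molecule, 15 members were called, 9 higher and 6 lower, beside 24.4% of all genes. Fbxo15 had 0 reads in Pabpn1l-null zygotes against 51 in WT zygotes, at least 1.08-fold lower at the floor.

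Summed over the array, reads in Pabpn1l-null zygotes did not differ from those in WT zygotes beyond the counting interval. Its 729 reads in Pabpn1l-null zygotes against 1522 in WT zygotes gave a scaled ratio of 1.08 (0.849 to 1.37). The median log2 ratio of its 10 tested genes was 0.46, with 6 above and 4 below a ratio of 1. Fbxw26 had a ratio of 0.618 (0.317 to 1.14) and Fbxw28 of 0.428 (0.171 to 0.904) in Pabpn1l-null zygotes over WT zygotes, and Fbxw24 of 1.94 (1.13 to 3.26), with none past the call. The comparisons with null zygotes and with 2-cell embryos share the WT zygote column, so they are not independent. Fbxo34 was 0.750 of WT zygotes in the null column (0.663 to 0.847; exact test, adjusted p = 0.000213), a difference below the fold asked, and Fbxo28 was 0.732 (0.586 to 0.912; exact test, adjusted p = 0.104). The 74 members together had a ratio of 0.907 (0.847 to 0.970), and of 0.994 (0.915 to 1.08) without Fbxo34.

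T-to-C reads, which mark RNA that may have been made during the labelling, numbered 400 for all members in Pabpn1l-null zygotes, 759 in WT 2-cell embryos and 686 in WT zygotes. Their share of the members' reads was 4.78% (3.63% to 6.14%) in Pabpn1l-null zygotes, 3.84% (3.15% to 4.60%) in WT 2-cell embryos and 3.29% (2.68% to 4.00%) in WT zygotes, with intervals that include the shares over all genes given above. With no unlabelled control among the columns, an unknown part of these reads is sequencing error or difference in sequence. Among 27 members tested, 0 were past the call in Pabpn1l-null zygotes against WT zygotes (exact test, 0 also at an unadjusted p under 0.05 and by edgeR), where 0.0686% of 4376 genes were called. In WT 2-cell embryos against WT zygotes 0 were higher and 2 lower, or 7.41% of the 27, beside 6.03% of all genes, 4.34% higher and 1.69% lower. Fbxo34 had 131 T-to-C reads in Pabpn1l-null zygotes, 43 in WT 2-cell embryos and 241 in WT zygotes, a 2-cell ratio of 0.138 (0.0468 to 0.328). Fbxw26 had 25 T-to-C reads in null zygotes, 0 in 2-cell embryos and 70 in WT zygotes, at least 4.32-fold lower in WT 2-cell embryos at the floor. Both were also lower there in total reads. The edgeR exact test called 5 members in T-to-C reads, Fbxw11 and Fbxw9 higher and Fbxo34, Fbxw26 and Fbxo18 lower in WT 2-cell embryos, beside 21.4% of all genes.

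The T-to-C share of single members passed no test, in 41 members tested for each comparison, where 0.0167% of all genes were called for Pabpn1l-null zygotes and 1.9% for WT 2-cell embryos, 1.84% higher and 0.0579% lower (Fisher's exact test on molecules, Benjamini-Hochberg adjusted). At an unadjusted p under 0.05, 1 member passed in the null comparison and 2 in the 2-cell comparison. The share of all genes at that threshold was not counted, and edgeR was not run on shares. Fbxw4 had a high share in every column, with 36.8% in Pabpn1l-null zygotes, 19.8% in WT 2-cell embryos and 18.2% in WT zygotes. Fbxl5 was nearly even in the row used, at 14.1% in null zygotes, 13.2% in 2-cell embryos and 12.3% in WT zygotes. These shares lay above those of the whole columns in all 3 groups. Another Fbxl5 row, not used, had 8.15% in Pabpn1l-null zygotes, 2.13% in WT 2-cell embryos and 3.33% in WT zygotes. In Fbxw18 all 25 reads in WT 2-cell embryos had the mismatch, against 11 of 53 in Pabpn1l-null zygotes and 5 of 28 in WT zygotes. Fbxo33 and Fbxo42 each had 78 T-to-C reads in WT 2-cell embryos, the most among Fbxo genes, with shares of 4.51% and 6.98% there. The Fbxl genes together had 73 T-to-C reads in Pabpn1l-null zygotes, 274 in WT 2-cell embryos and 99 in WT zygotes, a 2-cell ratio of 2.14 (1.14 to 4.29). Without Fbxl5 that ratio was 1.79 (0.747 to 4.28).

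**Figure D4:**
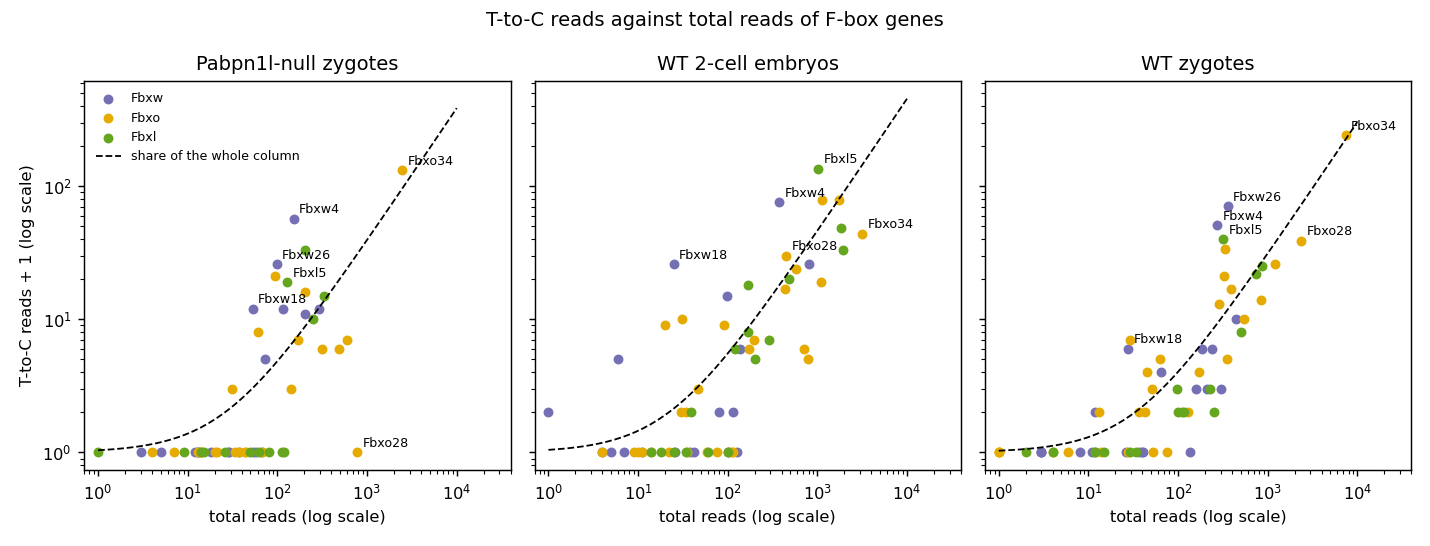
T-to-C reads plus 1 against total reads (both log axes) of the F-box genes with at least 1 read, in Pabpn1l-null zygotes, WT 2-cell embryos and WT zygotes from left to right, coloured by group. The dashed line shows the share over all genes of a column, plus 1 read; Fbxw4 and Fbxl5 lie above it in each panel, and Fbxo34 lies below it in WT 2-cell embryos.

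Promoter CpG content and the 2-cell ratio could be set side by side for 46 tested members, 9 of them in the array. All 9 array genes had 4 CpG or fewer and a ratio below 1. The remaining members, with 3 to 56 CpG, lay on both sides. Of the members past the call with a promoter, the 3 that were higher had a median of 31 CpG, and the 6 outside the array that were lower had a median of 26.

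**Figure D5:**
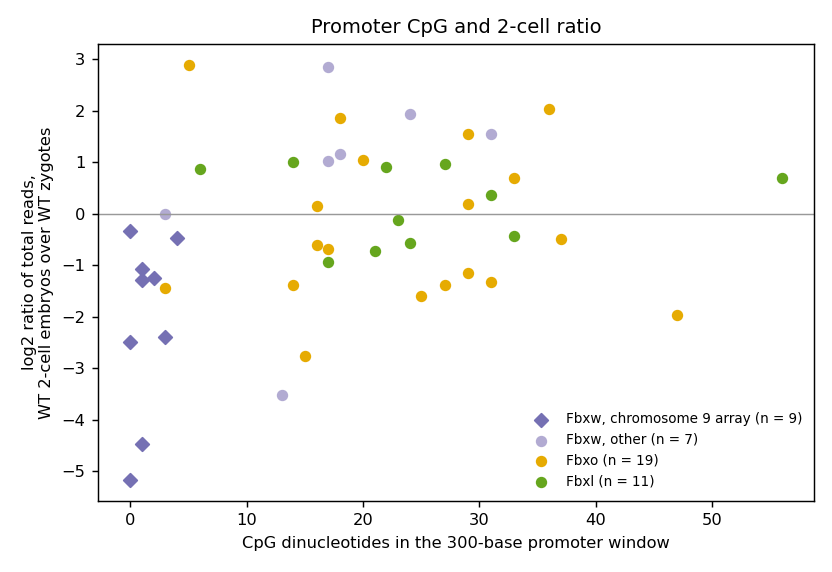
Log2 ratio of total reads, WT 2-cell embryos over WT zygotes, against the number of CpG dinucleotides in the 300-base promoter window, for 46 tested F-box genes; a gene at 0 reads in 1 column is drawn at its bound, or at 0 where the other column has no more reads than the floor. Diamonds are the 9 genes of the chromosome 9 array, all at the left and below 0, and circles are the other members.

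The rest of the SCF machinery was measured from a list of core subunits and regulators, of which 34 of 37 names were analysed. In WT 2-cell embryos against WT zygotes 7 were higher and 9 lower of 34 tested, beside 17.3% higher and 17% lower of all genes, with a median log2 ratio of -0.25 against 0.04 for all genes. Rbx1, the ring subunit, had 93 reads in Pabpn1l-null zygotes, 59 in WT 2-cell embryos and 211 in WT zygotes, a 2-cell ratio of 0.216 (0.0816 to 0.460). Its relative Rnf7 had 8 reads in null zygotes, 120 in 2-cell embryos and 17 in WT zygotes, a ratio of 5.45 (1.56 to 58.6). The ring subunit and its relative were therefore past the call in opposite directions. Skp1a, the mouse Skp1 gene, had 2383 reads in null zygotes, 2373 in 2-cell embryos and 5947 in WT zygotes, a 2-cell ratio of 0.308 (0.271 to 0.350). Its T-to-C reads numbered 232 in Pabpn1l-null zygotes, 222 in WT 2-cell embryos and 777 in WT zygotes, the only one of 18 listed genes tested that was past the call in T-to-C reads. Cul1 had 481 reads in null zygotes, 1574 in 2-cell embryos and 1288 in WT zygotes, a ratio of 0.943 (0.773 to 1.15). Of the other higher genes, Cdc34, a ubiquitin-conjugating enzyme of SCF, stood at 3.58 (2.52 to 5.30), Dcun1d3, which acts in cullin neddylation, at 5.54 (3.05 to 11.2), and the signalosome subunit gene Cops7a at 3.04 (1.30 to 7.31). Of the other lower genes, Glmn, an inhibitor that binds Rbx1, stood at 0.0241 with an interval reaching 0.842, the ubiquitin-conjugating enzyme gene Ube2d1 at 0.178 (0.0180 to 0.829), and the Nedd8 protease gene Senp8 at 0.221 (0.152 to 0.315). In Pabpn1l-null zygotes against WT zygotes 0 of the 34 passed (exact test), beside 1.44% of all genes. Short of the fold asked were Dcun1d1 at 0.511 (0.417 to 0.628; exact test, adjusted p = 1.48e-09) and Arih1 at 0.685 (0.554 to 0.842; exact test, adjusted p = 0.0108).

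Among 7 F-box genes that carry other names, 5 were tested, with 1 higher and 2 lower in WT 2-cell embryos, beside 17.3% and 17% of all genes. Btrc, the second beta-TrCP gene, had 169 reads in Pabpn1l-null zygotes, 55 in WT 2-cell embryos and 317 in WT zygotes, a 2-cell ratio of 0.134 (0.0559 to 0.294). Its paralog Fbxw11 was higher in the same column. Kdm2b, a histone demethylase with an F-box, had 661 reads in null zygotes, 299 in 2-cell embryos and 1374 in WT zygotes, a ratio of 0.168 (0.119 to 0.237), and Kdm2a stood at 2.02 (1.18 to 3.65). Of 10 listed substrates of F-box proteins, all tested, 3 were higher and 3 lower in WT 2-cell embryos, against the same background. Ccne1, the cyclin E gene whose protein Fbxw7 recognises, had 10 reads in Pabpn1l-null zygotes, 1220 in WT 2-cell embryos and 22 in WT zygotes, a ratio of 42.8 (15.1 to 219). Cry2, a gene of the circadian clock, had 8 reads in null zygotes, 161 in 2-cell embryos and 10 in WT zygotes, a ratio of 12.4 (2.88 to 731). Ireb2, whose protein Fbxl5 recognises, stood at 2.28 (1.95 to 2.66). The 3 lower genes were Ctnnb1 at 0.470 (0.346 to 0.630), Cdc25a at 0.347 (0.254 to 0.463) and Cdkn1b at 0.445 (0.203 to 0.898). RNA of a substrate says nothing of its protein, which was not measured. In Pabpn1l-null zygotes against WT zygotes, 0 genes of these lists passed (exact test), beside 1.44% of all genes. Short of the fold asked were Cdc25a at 0.501 (0.334 to 0.739; exact test, adjusted p = 0.0103) and Ireb2 at 0.582 (0.427 to 0.777; exact test, adjusted p = 0.00776).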

How the data were processed

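Per the submitters' processing notes, the genome build was mm10. No source names an aligner, a counting tool or how duplicates were treated. The deposited counts, not normalized by the authors, are of all reads and of T-to-C reads, in 1 column pair per group. Of its 30493 rows, 47 with a date in place of a name were left out, and 1 row per name was kept.

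Columns were scaled on total reads by TMM in edgeR 4.0.16 (factors 1.04 for Pabpn1l-null zygotes, 0.963 for WT 2-cell embryos and 0.996 for WT zygotes). Counts were divided by 7 and rounded to molecules, a choice made after the excess of zeros in the null column was seen. Genes with at least 20 reads over the 3 columns (T-to-C, at least 10; share, at least 20 in both columns) were tested by an exact conditional binomial test or Fisher's exact test, with Benjamini-Hochberg adjustment over all of them. For the log2 ratio 0.5 molecule, scaled to the column, was added. Intervals are exact 95% intervals on molecules. The script was tested on simulated data. Work used Python 3.11.15 and R 4.3.3.

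Members, gene lists and the rule for named genes were chosen with earlier results of these data known. Named were the 4 members of each group with most reads and members past a call (up to 6 per group and direction). Also named were the 2 per group with most T-to-C reads and members with a known role. Of the listed pathway genes past a call, only some were named. Fbxw14, Fbxo18, Cul1, Ireb2, Dcun1d1, Arih1 and Nr5a2 were named after their values were seen. Promoters are RefSeq's, on GRCm38.p6. Protein sequences were not used here. The values of 1 member are not reported here singly. Alternatives were RLE factors, column totals alone, no filter, at least 50 reads in 2 columns, every read as 1 molecule, 7 reads per molecule in the null column only, distinct rows summed, and edgeR's exact test at an assumed biological variation of 0.4.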

Additional observations from a re-analysis of the deposited data

How the results depend on the processing

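Among 483 results for single genes under the alternatives, 446 kept their side of the threshold, 24 passed only under the alternative and 13 were lost. Of the members past the call, 0 turned their direction. Ratios short of the call could change sign. The log2 ratio of Fbxl5 in Pabpn1l-null zygotes over WT zygotes went from -0.13 to 0.55 with distinct rows summed. What changed most was the size of a molecule. With every read as 1 molecule, members past the call numbered 15 in total reads, 7 in T-to-C reads and 6 in T-to-C share for Pabpn1l-null zygotes, beside 24.4%, 19.7% and 13.3% of all genes, and 39, 15 and 7 for WT 2-cell embryos, beside 59.4%, 51.1% and 15.7%, with 16 Fbxw, 20 Fbxo, 3 Fbxl and 8 array genes in the total-read count. With 7 reads per molecule in the null column only, the total-read count was 5 for null zygotes, beside 3.3% of all genes, and the 2-cell counts were again 39, 15 and 7, with 16, 20, 3 and 8 by group. With the edgeR exact test, 2-cell calls were 5 in T-to-C reads, 2 higher and 3 lower, beside 21.4% of all genes, and in total reads 6 in Fbxo and 0 in Fbxl genes, beside 26.3%. With at least 50 reads in 2 columns, 2 members remained testable in T-to-C reads and 1 passed for WT 2-cell embryos, beside 40.9% of all genes. Fbxl calls in total reads for WT 2-cell embryos, of 15 tested, were 3 under RLE, beside 34.5% of all genes. They were 2 under column totals and 2 with distinct rows summed, beside 34.2% each. The cause of these shifts was not tested. No paired analysis was possible because the table has 1 column pair per group. For the same reason the planned edgeR quasi-likelihood and DESeq2 tests, the replicate block and leaving out single replicates were not run.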

Other observations

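Of 74 members, 4 had further rows with other values under the same name that were not used above. The second Fbxw28 row had 91 reads in Pabpn1l-null zygotes, 79 in WT 2-cell embryos and 188 in WT zygotes, a 2-cell ratio of 0.324 (0.141 to 0.655), against 0.0180 in the row used. Both rows of this array gene were below 1. The second Fbxo3 row had 37 reads in null zygotes, 18 in 2-cell embryos and 55 in WT zygotes, a 2-cell ratio of 0.253 (0.0495 to 1.21). The second Fbxl5 row had 233 reads in null zygotes, 656 in 2-cell embryos and 240 in WT zygotes, a 2-cell ratio of 2.11 (1.43 to 3.26) and a ratio of Pabpn1l-null to WT zygotes of 2.19 (1.32 to 3.65). Its T-to-C share was 8.15% in Pabpn1l-null zygotes, 2.13% in WT 2-cell embryos and 3.33% in WT zygotes, against 14.1% in Pabpn1l-null zygotes, 13.2% in WT 2-cell embryos and 12.3% in WT zygotes for the row used. A further Fbxw2 row had 3 reads in null zygotes, 66 in 2-cell embryos and 36 in WT zygotes. Of these, 3 in null zygotes, 12 in 2-cell embryos and 15 in WT zygotes had a T-to-C mismatch. The Fbxw2 row used had 1 such read in 2-cell embryos and 0 in both zygote columns.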
